A study of Homo sapiens with 18 samples.

Results

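The genes described here are 42 parts of the secretory machinery of antibody-making cells: the factors that bring a nascent protein into the endoplasmic reticulum (ER), fold it, load it for export or destroy it. They were chosen by name, as the rows of the raw count table whose symbol is on a list of 11 chaperones and co-factors, 6 enzymes and partners of disulfide formation, 11 translocation components, 9 degradation factors, 2 coat proteins of ER exit vesicles and 3 stress sensors. All 42 were among the 28395 genes of the table, and all 42 were among the 14571 genes that passed the low-count filter. RNA was sequenced from the human multiple myeloma lines H929, MM1S and OPM2, with 18 libraries in all and 2 in each of 9 groups. Each line had cells with a CRISPR-Cas9 inducible IKZF1 knockout and cells with an empty vector control. OPM2 also had a CRISPR-Cas9 inducible IKZF3 knockout, control cells labelled NT and called untreated here, and cells given lenalidomide at 10 µM. Doxycycline at 1 µg/mL induced guide expression, culture lasted 72 h, and live cells were then sorted, per the labels' protocols. No culture time is recorded for the untreated libraries. Doxycycline is named for the empty vector libraries and not for the untreated or lenalidomide libraries. Empty vector and untreated cells thus differ in the vector and the drug together, and may differ in culture time. The sources used here do not say whether a knockout group is 1 clone, or whether its libraries came from separate cultures, so p-values measure the spread between these libraries, which may be technical. Column names of the count table set the libraries of a knockout group apart by a number at their end, and the OPM2 pair labelled IKZF1 knockout by a further code too; the labels do not say what these stand for.

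Plasma cells and the myelomas derived from them secrete immunoglobulin in bulk, and their ER is built for it. Nascent chains are carried to the membrane by the signal recognition particle, pass through the SEC61 channel, and fold with the help of HSPA5 (BiP), HSP90B1 (GRP94), the lectin chaperones and the protein disulfide isomerases. Chains that fail are pulled back to the cytosol by the SYVN1-SEL1L ligase with its Derlin and EDEM partners and are degraded there. The sensors ERN1 (IRE1), ATF6 and EIF2AK3 (PERK) adjust this capacity in the unfolded protein response: ERN1 splices XBP1 mRNA, ATF6 is cut to release a transcription factor, and EIF2AK3 slows translation and raises ATF4. Ikaros (IKZF1) and Aiolos (IKZF3) are lymphoid transcription factors that lenalidomide sends for destruction by the cereblon ligase.

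Total counts were 11.8 to 24.19 M per library. Levels below are in CPM, the count scaled to each library's effective size. A gene was called where the Benjamini-Hochberg adjusted p of edgeR's quasi-likelihood test, over all 14571 genes, was below 0.05. The empty vector libraries of OPM2 were unlike each other: 1013 genes differed by more than 2-fold between replicates 1 and 2, against 16 to 422 in the other groups, and 17 of the 42 genes here differed by more than 1.5-fold, against 0 or 1. Results that rest on replicate 1 are given with and without it. The mRNA of the targeted genes was not lower in the knockout libraries, so the groups are named by their labels throughout. IKZF1 was at 128 and 120 CPM in H929 empty vector and 124 and 188 CPM in the libraries labelled IKZF1 knockout, and in MM1S at 179 and 185 against 312 and 333 CPM. IKZF3 was at 44.0 and 50.3 CPM in OPM2 empty vector and 69.3 and 66.6 CPM in the libraries labelled IKZF3 knockout. Transcript counts do not show whether an edited message makes protein. Plasma cell markers (SDC1, CD38, TNFRSF17, IRF4, PRDM1, JCHAIN) summed to 6161 to 18405 CPM per library. The T and NK list summed to at most 40.8 CPM, the myeloid list to 5.1, the stromal and epithelial list to 32.5 and the mature B list to 59.7 CPM, with MS4A1 (CD20) and FCGR3A at 0 counts everywhere.

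Promoters of several of these genes carry the sequence elements through which the unfolded protein response is known to act. These elements are shown first because the genes that bear them were not called as 1 block. RefSeq promoters (GRCh38.p14, 250 bases before to 50 after the start) were at hand for 38 of the 42 genes; PDIA3, DERL1, DERL3 and SEC24D were the others. The ER stress response element ERSE (CCAAT, 9 bases, CCACG, either strand) was found in 6 of the 38 (15.8%), HSPA5, HSP90B1, CALR, CANX, CRELD2 and ERO1B, against 22 of 27305 promoters of the table (0.0806%). ERSE-II (ATTGG, 1 base, CCACG, either strand) was found in HYOU1, SDF2L1 and HERPUD1 (7.9%), against 15 promoters (0.0549%). The core TGACGTG of the unfolded protein response element stood in HYOU1 and SEC62, against 2.0% of all promoters, and TGATGCA, a core of the amino acid response element bound by ATF4, in HERPUD1, against 2.69%. The HYOU1 core begins 188 bases before the start and overlaps the first of its ERSE-II matches; no other match overlapped another. The 250 bases before the start are printed for 3 genes on which the results turn, 5′ to 3′ on the gene's strand, with ERSE or ERSE-II in capitals.
HSPA5 (BiP, the Hsp70 of the ER), chr9:125241344-125241593, minus strand: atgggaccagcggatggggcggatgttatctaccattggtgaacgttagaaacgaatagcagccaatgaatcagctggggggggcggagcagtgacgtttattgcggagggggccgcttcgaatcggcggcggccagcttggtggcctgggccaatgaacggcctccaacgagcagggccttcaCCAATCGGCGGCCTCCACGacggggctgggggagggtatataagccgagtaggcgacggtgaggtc
HYOU1 (GRP170, nucleotide exchange factor of BiP), chr11:119057206-119057455, minus strand: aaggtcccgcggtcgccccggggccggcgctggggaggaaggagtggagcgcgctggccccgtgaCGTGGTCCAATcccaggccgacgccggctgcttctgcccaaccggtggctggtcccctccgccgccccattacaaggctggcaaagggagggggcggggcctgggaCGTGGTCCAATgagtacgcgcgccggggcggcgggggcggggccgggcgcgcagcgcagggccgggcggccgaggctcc
HERPUD1 (membrane partner of the degradation ligase), chr16:56931892-56932141, plus strand: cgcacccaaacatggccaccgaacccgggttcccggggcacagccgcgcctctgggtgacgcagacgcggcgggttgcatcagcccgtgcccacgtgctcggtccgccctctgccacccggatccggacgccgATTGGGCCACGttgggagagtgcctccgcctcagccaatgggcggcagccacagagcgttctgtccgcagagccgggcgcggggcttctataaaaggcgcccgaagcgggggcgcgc
The HSPA5 match begins 66 bases before the start and reads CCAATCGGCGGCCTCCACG, with further CCAAT boxes upstream that lack the CCACG end. HYOU1 has the same ERSE-II match, CGTGGTCCAAT on the reverse strand, at 185 and at 79 bases before the start. HERPUD1 has ATTGGGCCACG at 117 bases before the start and the amino acid response core, read as TGCATCA on the reverse strand, at 175 bases before it.

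Levels of different genes can be compared only per transcript length, for which the authors' deposited table of log2 FPKM gives 1 merged column per control group. On that scale, in the authors' deposited table, MZB1, an ER co-chaperone of immunoglobulin assembly, led in H929 empty vector cells at 9.94, followed by the translocon-associated subunit SSR2 at 9.72 and P4HB, a protein disulfide isomerase, at 9.56. CALR (calreticulin) led in MM1S at 10.26 and P4HB in untreated OPM2 at 9.63. In OPM2 empty vector SSR2 stood at 9.48 and CALR next at 9.47. That column is merged, and its values could not be given without replicate 1. ERO1B, the oxidase that recharges the isomerases, was the lowest of the 42 in all 4 columns of that deposited table, between -0.98 and 0.80. DERL3, a Derlin of the degradation channel, separated the lines: its log2 FPKM in the authors' deposited table was 5.79 in H929, 5.01 in MM1S, 2.48 in OPM2 empty vector and 2.43 in untreated OPM2.

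**Figure D1:**
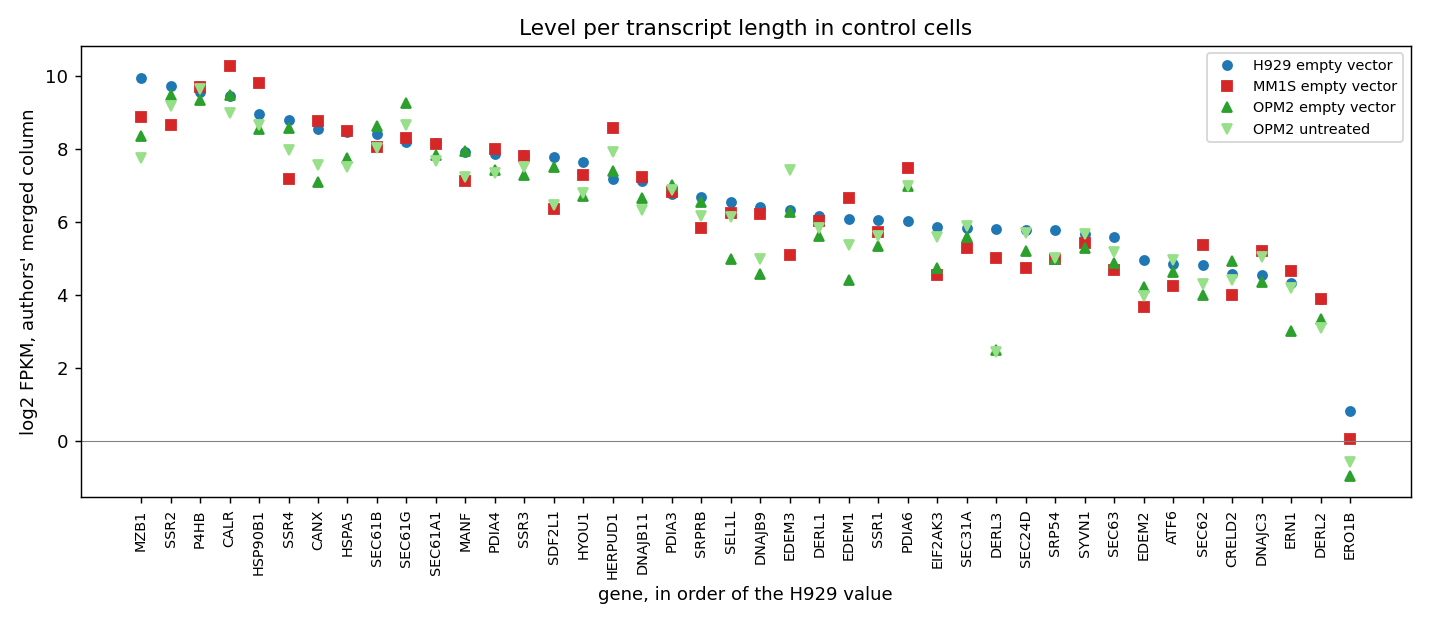
Log2 FPKM of each gene in the authors' merged columns for the 4 control groups, genes in order of the H929 value. MZB1 is highest in H929 at 9.94, ERO1B is lowest in every column, and DERL3 lies at 2.48 and 2.43 in the OPM2 columns.

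Between the lines, in empty vector cells, 28 of the 42 genes were called in H929 against MM1S (63.2% of all tested genes were called), 30 in H929 against OPM2 (64.6%) and 30 in MM1S against OPM2 (67.5%), shares of 66.7%, 71.4% and 71.4% that lie near those of all genes. The largest difference was in DERL3, at 183 and 185 CPM in H929, 107 and 111 in MM1S and 26.2 and 14.2 in OPM2 empty vector (H929 over OPM2 log2 3.20 ± 0.24 SE, adjusted p = 3.46e-08); it was 3.73 without OPM2 empty vector replicate 1 and 2.81 without replicate 2, called each time. With only the compared groups in the fit 15 genes were called in H929 against OPM2 (44.2% of all genes) and 17 in MM1S against OPM2 (47.5%). PDIA6, a disulfide isomerase that also binds BiP, stood out in the other direction: 219 and 222 CPM in H929 against 555 and 535 in MM1S (log2 -1.30 ± 0.12, adjusted p = 3.68e-07). As a group the 42 genes took 2.28% of all counts in both H929 empty vector libraries, 1.98% in both of MM1S and 1.62% and 1.66% in OPM2.

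In MM1S the secretory set stood mostly higher in the libraries labelled IKZF1 knockout. Of the 42 genes 20 rose and 1 fell, or 50% called, against 28.2% of all tested genes (15.6% higher and 12.6% lower). The median log2 fold change of the 42 was 0.32, against 0.0031 over all tested genes, and 34 of 42 values were positive. The share of counts they took went from 1.98% in both empty vector libraries to 2.43% and 2.41%. The largest changes were in DERL3, MZB1, SEC62, DNAJC3 and ATF6.

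Among the MM1S chaperones 6 of 11 rose and none fell, where 15.6% of all tested genes were called higher and 12.6% lower. HSPA5 was at 1168 CPM in both empty vector libraries and at 1713 and 1634 CPM in those labelled knockout (log2 0.52 ± 0.10 SE, adjusted p = 0.00134). Both knockout values lay above both controls, and the call held when any 1 of these 4 libraries was left out. DNAJC3, a co-chaperone of BiP that also inhibits the PERK kinase, rose from 209 and 209 CPM to 355 and 380 (0.81 ± 0.15, adjusted p = 0.00102). DNAJB9, the co-chaperone that restrains IRE1, rose from 184 and 181 to 299 and 290 CPM (0.69 ± 0.11, adjusted p = 0.000337). HYOU1, DNAJB11 and HSP90B1 rose by less, with log2 fold changes of 0.30 to 0.49. The calcium-binding lectin chaperones CALR and CANX, and the small stress-induced factors MANF, CRELD2 and SDF2L1, were not called, with values from -0.32 to 0.21. Over the 42 genes the fold change of the IKZF1 label had a Spearman correlation with transcript length of 0.32 in MM1S and 0.33 in H929. The part of length in these results was not tested.

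Disulfide formation had the highest share of MM1S calls, 5 of 6 genes, all higher, where 15.6% of all tested genes were called higher. MZB1 went from 368 and 343 CPM to 755 and 718 (log2 1.05 ± 0.22, adjusted p = 0.00225). PDIA3, the isomerase that works with the lectin chaperones, rose by 0.56, P4HB by 0.47, PDIA6 by 0.37 and PDIA4 by 0.27 on the log2 scale. ERO1B, at 5.21 to 6.04 CPM in all 4 libraries, was not called.

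Translocation was split: 4 of 11 genes rose in MM1S and none fell, where 15.6% of all tested genes were called higher and 12.6% lower. SEC62, which helps short and post-translational substrates into the channel, was at 263 and 257 CPM in empty vector libraries and 535 and 494 in those labelled knockout, the smallest adjusted p of the 42 (log2 0.99 ± 0.12, adjusted p = 3.83e-05). SSR3, a subunit of the translocon-associated complex, rose from 709 and 731 to 1191 and 1242 CPM (0.76 ± 0.11, adjusted p = 0.000166). The channel subunit SEC61A1 (0.37) and SSR1 (0.39) rose too. The small channel subunits SEC61B and SEC61G, at 0.26 and -0.20, and the targeting factors SRP54 and SRPRB, at -0.09 and -0.16, were not called.

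Degradation factors moved both ways in MM1S, 3 of 9 higher and 1 lower, where 28.2% of all tested genes were called. DERL3 was at 107 and 111 CPM in empty vector libraries and 214 and 246 in those labelled knockout (log2 1.08 ± 0.22, adjusted p = 0.00208). SYVN1 (HRD1), the ligase itself, rose from 160 and 165 to 267 and 274 CPM (0.74 ± 0.10, adjusted p = 8.7e-05). HERPUD1 rose by 0.48 ± 0.16, a call that did not hold without any 1 of its 4 libraries. DERL1, the Derlin paralog of DERL3, was the 1 member that fell, by 0.51 on the log2 scale (SE 0.10, adjusted p = 0.0017), from 214 and 214 to 159 and 141 CPM. SEL1L, the scaffold of the ligase, stood at 565 and 583 against 558 and 583 CPM.

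Of the MM1S sensors ATF6 rose from 144 and 139 to 265 and 232 CPM (log2 0.81 ± 0.11, adjusted p = 7.83e-05), and EIF2AK3 from 107 and 110 to 176 and 197 CPM (0.78 ± 0.21, adjusted p = 0.013). ERN1 had a fold change of like size, 0.76, but an SE of 0.28 and an adjusted p of 0.0556. The coat proteins SEC24D (0.44) and SEC31A (0.25) were not called. The fit shares 1 estimate of the spread over all groups, and the 2 unlike OPM2 empty vector libraries widen it. Without replicate 1 of that group all 21 MM1S calls were made among 32 (29 higher, 3 lower; 42.3% of all genes), and without replicate 2 the count was also 32. Leaving out 1 of the 4 MM1S libraries lowered the count to 12 or 13, of which 12 genes were called each time. With only the MM1S groups in the fit 33 were called (29 higher, 4 lower), as were 55.4% of all genes.

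In H929 the same label went with a lower level of most of the set, but few of the values passed the test. Of the 42 genes 2 rose and 5 fell, or 16.7% called, against 10.5% of all tested genes (5.92% higher and 4.6% lower). The median log2 fold change was -0.21, against -0.03 over all tested genes, and 37 of 42 values were negative. The genes took 2.28% of counts in both empty vector libraries, and 1.98% and 2.01% in those labelled knockout.

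PDIA6 was the H929 call with the smallest adjusted p. It was at 219 and 222 CPM in empty vector libraries and 104 and 139 in those labelled knockout, a fall of 1.82-fold (log2 -0.86 ± 0.12 SE, adjusted p = 0.000301), and it was the only H929 call that held when any 1 of the 4 libraries was left out. Among chaperones HYOU1 fell from 1043 and 1029 to 721 and 788 CPM (-0.46 ± 0.10, adjusted p = 0.00763). MANF, a secreted survival factor held in the ER, fell from 217 and 230 to 146 and 156 CPM (-0.57 ± 0.16, adjusted p = 0.0371). HSPA5, at 1652 and 1655 against 1325 and 1318 CPM, had a log2 fold change of -0.32 ± 0.10 and an adjusted p of 0.0527, just outside the threshold; it was called without OPM2 empty vector replicate 1 (adjusted p = 0.0017).

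In the H929 degradation group SYVN1 fell from 189 and 192 to 131 and 151 CPM (log2 -0.43 ± 0.10, adjusted p = 0.0111). DERL3 fell from 183 and 185 to 78.3 and 121 CPM (-0.89 ± 0.22, adjusted p = 0.017). HERPUD1 rose against this trend, from 333 and 324 CPM to 671 and 461 (0.78 ± 0.16, adjusted p = 0.00581). Both libraries labelled knockout lay above both controls, but they differed from each other, and the call held in 1 of the 4 fits that left out 1 of these libraries. Among the sensors EIF2AK3 rose from 274 and 272 to 446 and 475 CPM (0.76 ± 0.21, adjusted p = 0.033), while ATF6 (0.10) and ERN1 (0.37) were not called. No translocation component, isomerase other than PDIA6 or coat protein was called, although all 11 translocation values were negative, from -0.36 to -0.04, and 4 had an unadjusted p under 0.05. Without OPM2 empty vector replicate 1 the H929 count was 21 (3 higher, 18 lower; 22.2% of all genes), with all 7 calls among them. It was 1 without either empty vector library of H929 or knockout library a, and 5 without knockout library b. With only the H929 groups in the fit it was 11 (13.3% of all genes).

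**Figure D2:**
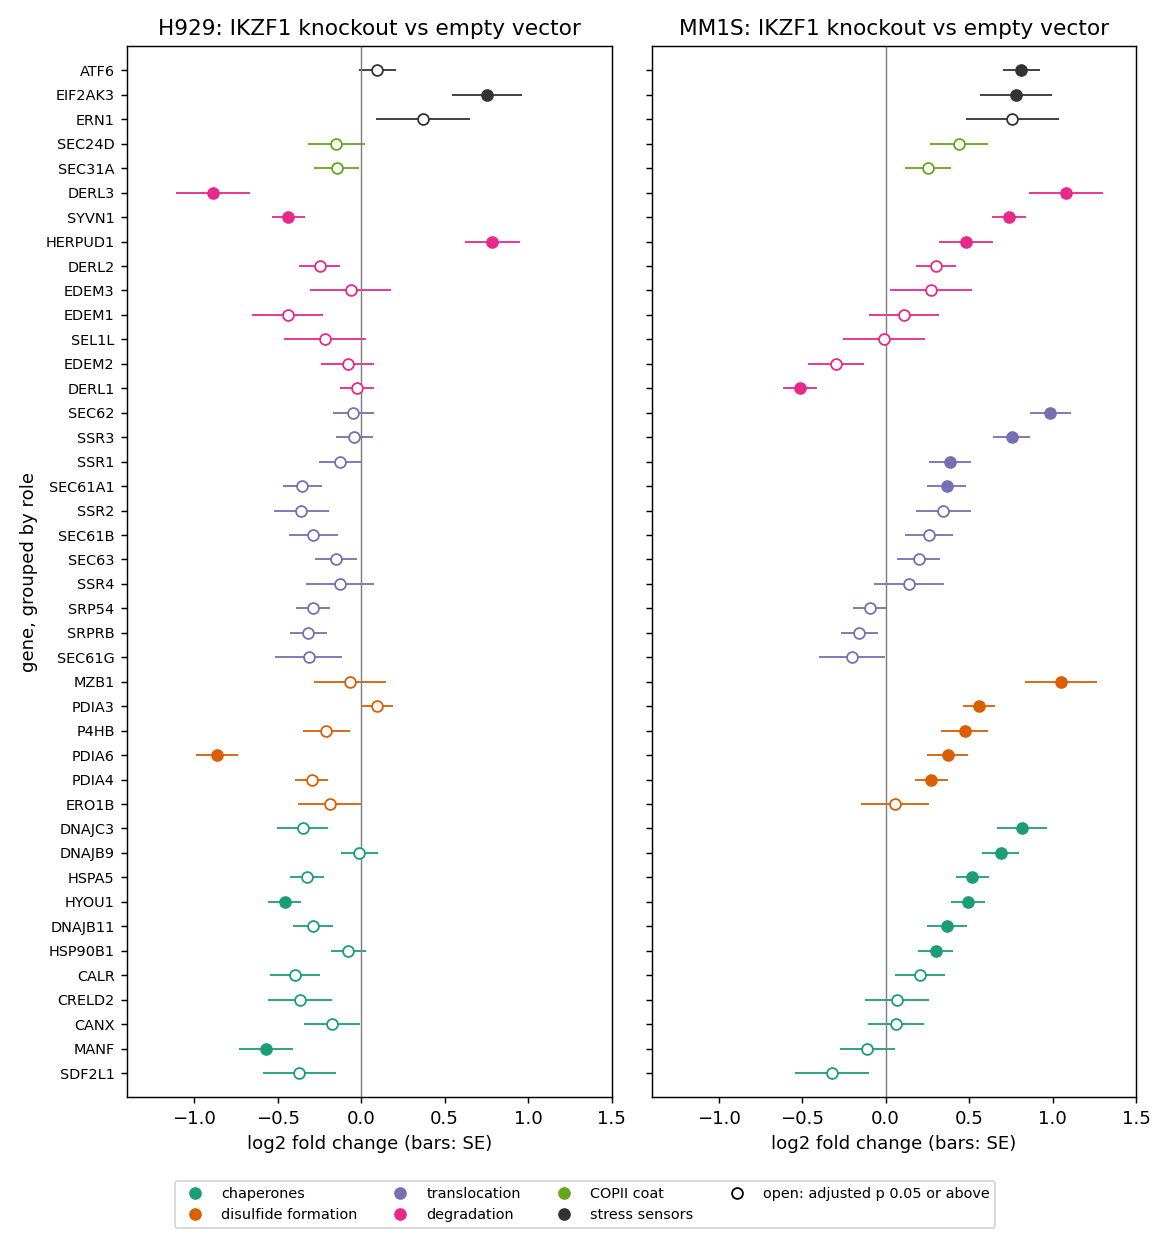
Log2 fold change (points, with SE bars) of each gene between libraries labelled IKZF1 knockout and empty vector in H929 and in MM1S, coloured by role; filled points had an adjusted p below 0.05. In MM1S most genes lie right of 0, with 20 called higher, and in H929 most lie left of 0, with HERPUD1 and EIF2AK3 called higher.

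The difference between the lines was tested directly, as the H929 fold change minus that of MM1S. It was called for 18 of 42 genes (42.9%), against 15.9% of all tested genes, with 17 lower in H929 (8.91% of all genes) and 1 higher (6.94%). Of the 17, 16 were called higher in MM1S and 4 were called lower in H929. Those 4, DERL3, PDIA6, SYVN1 and HYOU1, were thus called in opposite directions. The largest difference was in DERL3, at -1.97 ± 0.31 (adjusted p = 0.000624). PDIA6 (-1.23), SYVN1 (-1.17), DNAJC3 (-1.16), MZB1 (-1.12) and SEC62 (-1.03) followed, and HSPA5 stood at -0.84 ± 0.14 (adjusted p = 0.000924). DERL1 was the reverse case, 0.49 ± 0.14 (adjusted p = 0.0308). EIF2AK3 and HERPUD1, called higher in both lines, had differences of -0.03 ± 0.30 and 0.30 ± 0.23 that were not called. All 18 calls were also made without OPM2 empty vector replicate 1, and 11 of them without any 1 of the 8 libraries compared. With only these 4 groups in the fit 31 were called, 1 higher and 30 lower (29.5% of all genes).

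Genes with and without ERSE or ERSE-II in their promoter were both among the calls. In MM1S, where 15.6% of all tested genes were called higher, 4 of these 9 rose (HSPA5, HSP90B1, HYOU1 and HERPUD1). Their median log2 fold change was 0.21. Of the 29 whose promoter had neither, 14 rose, with a median over the 29 of 0.34. In H929, where 5.92% of all tested genes were called higher and 4.6% lower, HYOU1 fell and HERPUD1 rose among the 9. Both carry ERSE-II. The median of the 9 was -0.32, and HERPUD1 alone had a positive value. Of the 29 with neither element 1 rose and 3 fell, with a median of -0.22. A match is a description of the letters only. A single window per gene was searched. For some genes, such as PDIA6 and SRPRB, it lay inside the recorded span of the gene, and other starts were not searched.

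The regulators of the unfolded protein response, a list of 9 genes, went in 2 directions in MM1S: 2 rose and 5 fell. XBP1, the factor downstream of IRE1, rose from 728 and 688 CPM to 1304 and 1156 (log2 0.80, adjusted p = 2.4e-05); its spliced form was not measured here. ATF4, the factor downstream of PERK, was at 526 and 510 CPM in empty vector libraries and 204 and 200 in those labelled knockout (-1.36, adjusted p = 2.78e-05), and its target TRIB3 fell from 84.0 and 81.3 to 19.8 and 22.4 CPM (-1.97, adjusted p = 9.37e-07). In H929 none of the 9 was called, with XBP1 at 3717 and 3689 against 4460 and 4329 CPM. In MM1S 28.2% of all tested genes were called, 15.6% higher and 12.6% lower. Of 17 other folding genes 5 rose (QSOX1 by 1.16, SIL1 by 1.19) and none fell (29.4% called). Of 24 signal peptidase, targeting and oligosaccharyltransferase genes 7 rose and 1 fell (33.3%). Of 20 other ER-to-Golgi genes 6 rose and none fell (30%). The shares called in either direction were near that of all genes, but nearly all of these calls were higher. Other degradation genes were mixed, 4 higher (OS9 by 1.02) and 2 lower of 15 (40%). In H929 10.5% of all genes were called, 5.92% higher and 4.6% lower. The counts there were 0 higher and 3 lower, 0 and 4, 0 and 3, and 0 and 0 for these lists in the same order. PREB, the exchange factor that starts COPII coats, stood at -0.90.

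The sum of the plasma cell markers moved in the direction of these results, though not every marker did. XBP1, also planned as a marker, was counted among the regulators above. In H929 it stood higher in the libraries labelled knockout and was not called. The marker sum in MM1S was 6161 and 6233 CPM in empty vector libraries and 9674.5 to 10177 CPM in those labelled knockout. SDC1, CD38 and JCHAIN were called higher there. In H929 the sum was 17714 to 18405 CPM against 14359 and 14374 CPM, with SDC1 and JCHAIN called lower and CD38 higher. In MM1S the mature B list summed to 38.2 to 41.8 CPM in empty vector libraries and 50.2 to 59.7 in those labelled knockout, and the immunoglobulin constant genes to 303.7 to 306.8 and 263.3 to 296.0 CPM. The myeloid list there was at 1.8 to 2.1 and 4.6 to 5.1 CPM, and the stromal and epithelial list at 0.7 to 0.9 and 2.0 to 2.4 CPM. In H929 the stromal and epithelial list summed to 19.6 to 23.6 CPM in empty vector libraries and 28.6 to 32.5 in those labelled knockout, and the T and NK list to 38.9 to 40.8 and 28.5 to 30.2 CPM. The part of these markers in the result was not tested.

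OPM2 results turned on the choice of control. Between replicates 1 and 2 of the empty vector all tested genes differed by a median of 0.40 on the log2 scale without regard to sign. The same median was 0.08 to 0.18 in the other 8 groups. For the 42 genes it was 0.49, against 0.04 to 0.09 in the other groups. The difference followed transcript length: the 10 genes with the shortest transcripts, 587 to 1919 bases, were all higher in replicate 1 (median log2 ratio 0.76), and the 10 with the longest, 4646 to 9669 bases, were all lower (median -0.66). Over the 42 genes the Spearman correlation of the ratio with length was -0.84, given as a description since all points share the same 2 libraries. SSR4, a short translocon-associated subunit, was at 736 CPM in replicate 1 and 385 in replicate 2, and ERN1, with a long message, at 14.7 and 41.99 CPM. A correlation of the same sign was seen between the 2 libraries of MM1S empty vector (-0.69) and of untreated OPM2 (-0.69), where the ratios were far smaller. In the other pairs it was 0.55 for H929 empty vector, 0.43 for OPM2 labelled IKZF3 knockout, 0.37 for OPM2 labelled IKZF1 knockout, 0.35 for lenalidomide, -0.04 for H929 and -0.13 for MM1S labelled knockout.

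**Figure D3:**
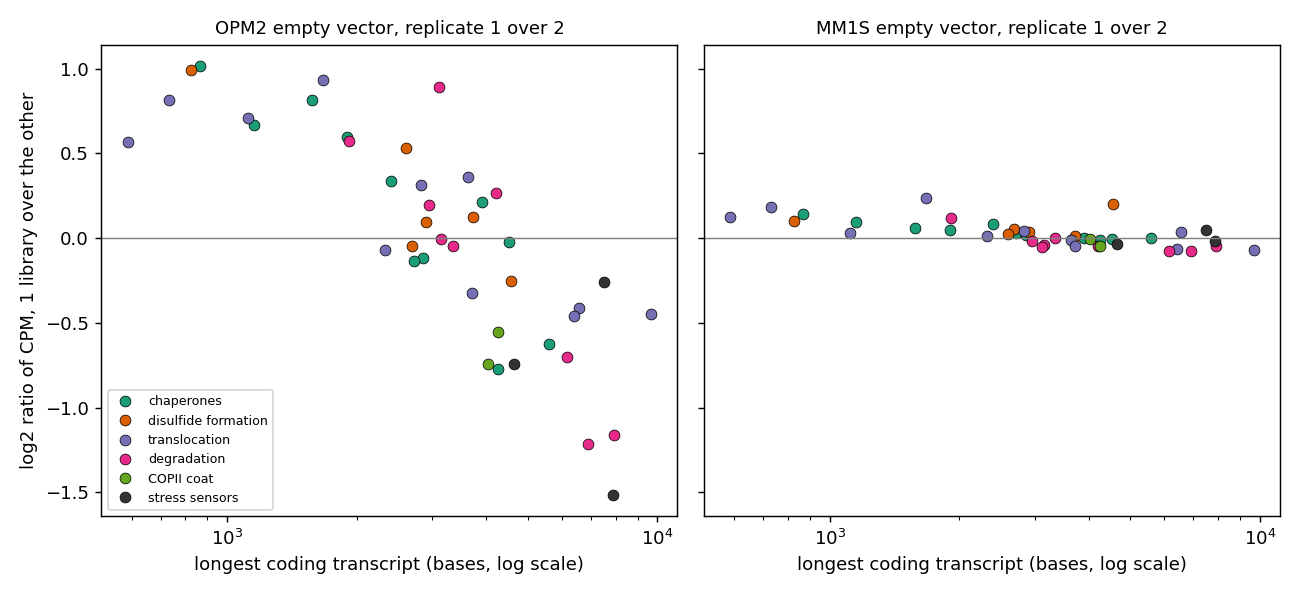
Log2 ratio of CPM between the 2 empty vector libraries of OPM2 (left) and of MM1S (right) against the length of each gene's longest coding transcript, on a log axis, coloured by role. In OPM2 the 10 shortest genes all lie above 0 and the 10 longest all below it, while the MM1S ratios lie near 0.

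Against both empty vector libraries, the OPM2 libraries labelled IKZF1 knockout gave 22 called genes of 42 (52.4%), 11 higher and 11 lower, with 36.3% of all tested genes called (16.2% higher and 20% lower). ERO1B rose from 1.84 and 2.19 CPM to 5.79 and 5.65 (log2 1.49 ± 0.22, adjusted p = 0.000551). DNAJC3 rose from 91.2 and 141 to 251 and 229 CPM (1.04 ± 0.15, and 0.80 without empty vector replicate 1, called both times) and MZB1 fell from 430 and 216 to 104 and 130 CPM (-1.47 ± 0.22). Long messages such as ERN1, SEL1L and EDEM3 were called higher and short ones such as SEC61G, SSR4 and SDF2L1 lower, and the Spearman correlation of the fold change with length was 0.84. Against replicate 2 alone 9 of the 22 were still called and the correlation was 0.69. Against the untreated libraries, which lack the vector and the doxycycline, 1 of the 22 was called, 12 had the other sign, and the correlation was -0.19. That 1 gene was ERO1B, with log2 fold changes of 1.49, 1.41 and 0.98 against the 3 controls; it was at 3.26 and 2.43 CPM in untreated cells. MZB1 kept its sign (-1.47, -0.86 and -0.58) but was not called against untreated cells (adjusted p = 0.133). EIF2AK3 was higher against both empty vector libraries (0.68, adjusted p = 0.0223). It was not called against replicate 2 alone (0.39) and stood at -0.20 against untreated cells (adjusted p = 0.653). Its call with the IKZF1 label in OPM2 thus rested on empty vector replicate 1. With only these 2 groups in the fit none of the 42 was called by edgeR (0.929% of all genes were), and 10 had an unadjusted p under 0.05.

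For the libraries labelled IKZF3 knockout, 19 of 42 genes (45.2%) were called against both empty vector libraries, 5 higher and 14 lower, with 36.8% of all tested genes called (16.2% higher and 20.6% lower); this comparison and the previous one share their controls. Against replicate 2 alone 13 of the 19 were still called, against untreated cells 2 were, and 7 had the other sign. HERPUD1 was the 1 gene called against all 3 controls. It was at 459 and 401 CPM in empty vector libraries, 572 and 539 in untreated ones and 245 and 247 in those labelled IKZF3 knockout, below every control library. Its log2 fold changes were -0.81 (adjusted p = 0.00249), -0.67 (0.0257) and -1.18 (0.000476) in that order. SEC61B, SEC61G and MANF were called lower against both empty vector libraries and against replicate 2 alone. Against untreated cells they stood at 0.03, -0.11 and 0.10. EDEM3, called higher by 1.08, stood at -0.02 against untreated cells. EIF2AK3 was called higher against both empty vector libraries (0.97, adjusted p = 0.0037) and against replicate 2 alone (0.68). Against untreated cells it stood at 0.09 (adjusted p = 0.878). EDEM1, a lectin that pulls misfolded glycoproteins toward degradation, was not called against empty vector (-0.15) but was against untreated cells (-1.12, adjusted p = 0.00452). With only the IKZF3 and empty vector groups in the fit none was called by edgeR (0.419% of all genes were), and 10 had an unadjusted p under 0.05.

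**Figure D4:**
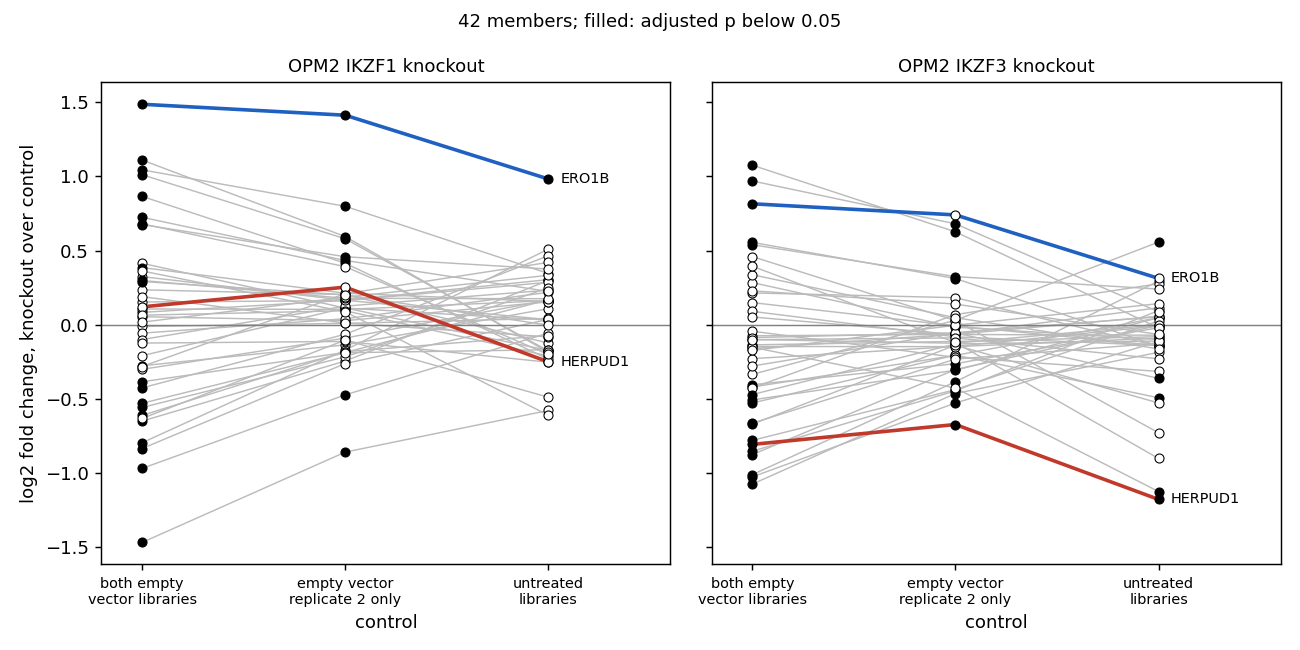
Log2 fold change of each gene for the OPM2 libraries labelled IKZF1 knockout (left) and IKZF3 knockout (right) against 3 controls, with a line per gene and filled points for an adjusted p below 0.05. ERO1B (blue) is called against each control on the left and HERPUD1 (red) on the right, while 12 and 7 of the genes called against both empty vector libraries have the other sign against untreated ones.

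Empty vector cells themselves differed from untreated OPM2 cells in 24 of 42 genes (57.1%), 14 higher and 10 lower, against 35.3% of all tested genes (19.5% higher and 15.8% lower). SDF2L1 was at 244 and 121 CPM against 78.1 and 69.0 (log2 1.31 ± 0.22, adjusted p = 0.0013), CALR at 2107 and 1390 against 984 and 901 (0.89 ± 0.15, adjusted p = 0.0013), and MANF at 337 and 212 against 147 and 137 CPM (0.95 ± 0.16, adjusted p = 0.00141). All 3 sensors were lower, with ERN1 at a log2 fold change of -1.29, 14.7 and 41.99 against 70.8 and 70.2 CPM. The fold change followed transcript length here too, with a Spearman correlation of -0.82 over the 42 genes and -0.72 without empty vector replicate 1: the longest transcripts of SDF2L1, MANF and CALR have 865, 1153 and 1903 bases, and those of EIF2AK3, ATF6 and ERN1 4646, 7496 and 7876. Without replicate 1 the log2 fold changes were 0.68 for SDF2L1 (adjusted p = 0.000313), 0.53 for CALR (0.000757), 0.54 for MANF (0.000868) and -0.78 for ERN1 (0.000125), all called. ATF6 (-0.21, adjusted p = 0.109) and EIF2AK3 (-0.59, adjusted p = 0.0636) were not called then. The count without replicate 1 was 15, 7 higher and 8 lower, and it was 11 without untreated replicate 2. With only these 2 groups in the fit none was called by edgeR (0% of all genes), and 12 had an unadjusted p under 0.05. Marker sums moved as well: the mature B list was at 6.9 to 17.2 CPM in empty vector and 28.9 to 30.2 in untreated libraries, the immunoglobulin constant genes at 6702.9 to 10869.3 and 5961.5 to 7017.7, and the plasma cell list at 10463.4 to 11556.5 and 12606.3 to 12831.3 CPM. The part of length and of these markers was not tested, and vector and doxycycline cannot be told apart here.

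With lenalidomide 2 of the 42 genes fell and none rose against untreated OPM2 cells (4.76%), against 10.3% of all tested genes (5.76% higher and 4.58% lower). Both were degradation factors: HERPUD1 was at 572 and 539 CPM untreated and 331 and 309 with lenalidomide (log2 -0.79 ± 0.16 SE, adjusted p = 0.0058), and EDEM1 was at 288 and 286 against 166 and 151 CPM (-0.86 ± 0.21, adjusted p = 0.0183). In both genes the groups did not overlap. The third smallest p was that of SYVN1, at 202 and 187 against 161 and 157 CPM, which was not called (-0.29 ± 0.10, adjusted p = 0.091). Among folding factors nothing was called: the 11 chaperones had log2 fold changes of -0.18 to 0.21, and HSPA5 was at 745 and 731 against 670 and 698 CPM. Without OPM2 empty vector replicate 1 the count was 8 (1 higher, 7 lower; 21.9% of all genes), both calls included. With only the lenalidomide and untreated libraries in the fit it was 20 (7 higher, 13 lower; 45.4% of all genes). It was 1 without lenalidomide replicate 1 or untreated replicate 2, and 0 without lenalidomide replicate 2 or untreated replicate 1, with 3 and 4 genes at an unadjusted p under 0.05 by edgeR.

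HERPUD1 and EDEM1 were also lower in the libraries labelled IKZF3 knockout when set against the same untreated libraries, at -1.18 and -1.12. Empty vector cells, which carry no knockout label, were lower than untreated cells too, at -0.37 (not called) and -0.97 (called). Against both empty vector libraries the IKZF3 label stood at -0.81 for HERPUD1 and -0.15 for EDEM1. The values against untreated cells share their controls with those of lenalidomide. The OPM2 libraries labelled IKZF1 knockout stood at 534 and 401 CPM for HERPUD1 and 192 and 184.5 for EDEM1. Of the 9 regulators of the unfolded protein response, 4 fell with lenalidomide and none rose, where 4.58% of all tested genes were called lower and 5.76% higher. TRIB3 went from 133 and 126 to 29.2 and 27.1 CPM (log2 -2.20, adjusted p = 8.34e-07), DDIT3 (CHOP) from 17.5 and 18.1 to 3.59 and 3.81 (-2.26, adjusted p = 3.4e-05), and ATF4 from 908 and 887 to 402 and 365 (-1.23, adjusted p = 0.000193). XBP1 was at 2822 and 2745 against 3315 and 3358 CPM and was not called.

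Whether lenalidomide and the IKZF1 label differed in their effect in OPM2 was tested as the difference of the fold changes, each against its own control. None of the 42 was called by edgeR (0.281% of all genes were), although 24 had an unadjusted p under 0.05, against 27.9% of all genes. limma-voom called 0 (0.302% of all genes) and DESeq2's Wald test 16 (12%). Without OPM2 empty vector replicate 1 edgeR called 6 (3.62% of all genes), all lower with lenalidomide: HERPUD1, EDEM3, DNAJC3, SEL1L, ERN1 and SEC24D, named after their values were seen. Without replicate 2 it called 33 (44%). The knockouts were also compared directly, without any control: 1 of 42 was called, against 2.59% of all genes. It was HERPUD1, higher in the libraries labelled IKZF1 knockout than in those labelled IKZF3 knockout (0.93 ± 0.16, adjusted p = 0.00728), a call that held in 1 of the 4 fits that left out 1 of these libraries (adjusted p up to 0.0797), while ERO1B (0.67) and DNAJC3 (0.49) were not called.

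Of the 5 comparisons with a knockout label or lenalidomide, EIF2AK3 and HERPUD1 were each called in 4. For both genes only the call with the IKZF3 label held in every fit that left out 1 library of the compared groups. EIF2AK3 was called higher each time, though neither of its OPM2 calls was made against untreated cells. HERPUD1 was called higher in H929 and MM1S and lower in OPM2 with the IKZF3 label and with lenalidomide. Its 9 group means ran from 1017 ± 97 CPM (SD, n = 2) in MM1S libraries labelled IKZF1 knockout, through 728 in MM1S empty vector, 566 in H929 labelled knockout, 556 in untreated OPM2, 467 in OPM2 labelled IKZF1 knockout, 430 in OPM2 empty vector, 328 in H929 empty vector and 320 with lenalidomide, to 246 in OPM2 labelled IKZF3 knockout. Libraries of neighbouring groups overlapped between H929 labelled knockout and untreated OPM2, between OPM2 labelled IKZF1 knockout and OPM2 empty vector, and between H929 empty vector and lenalidomide. The effect of the IKZF1 label on the set differed from OPM2 for 8 genes in H929, 1 higher and 7 lower (12.7% of all genes, 6.51% higher and 6.14% lower), and for 15 in MM1S, 14 higher and 1 lower (20.7%, 11.8% and 8.94%), counts that rest on the OPM2 empty vector libraries; 8 and 14 of these calls were also made without replicate 1. With upper quartile scaling the MM1S split was 13 higher and 3 lower.

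**Figure D5:**
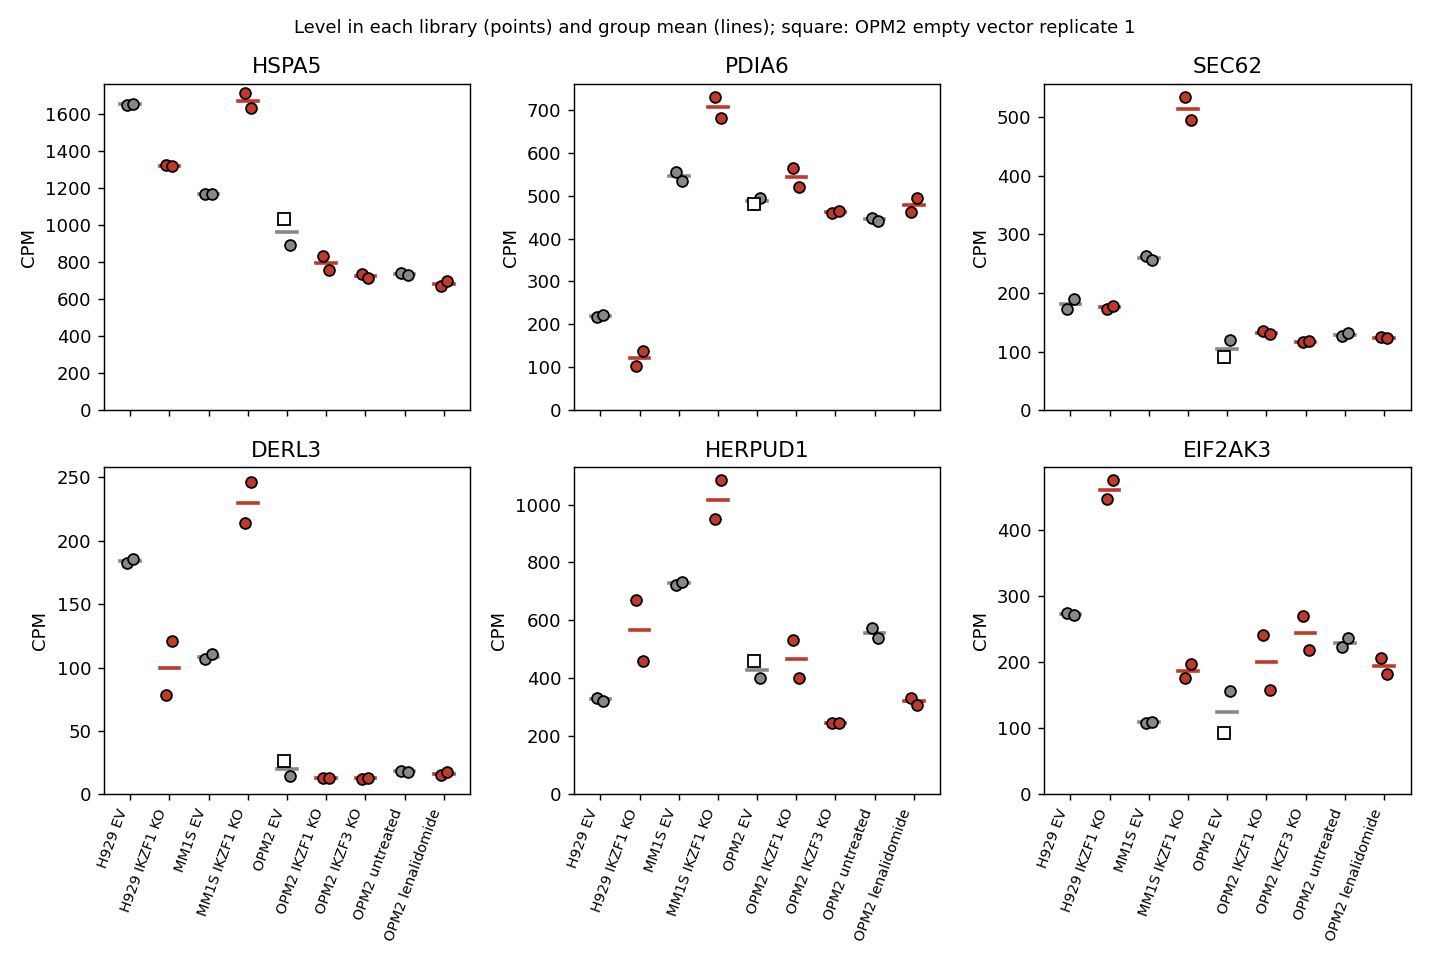
CPM of 6 genes in each of the 18 libraries (points) with group means (lines), control groups in grey and knockout or lenalidomide groups in red; the white square is OPM2 empty vector replicate 1. EV is empty vector and KO the knockout label. PDIA6 and DERL3 move down in H929 and up in MM1S, while HERPUD1 and EIF2AK3 move up in both.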

How the data were processed

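RNA of 18 libraries from 3 myeloma lines was sequenced. The authors deposited raw counts per Entrez gene, with no normalization, and a table of log2 FPKM values of 16352 genes in 14 columns. How the latter were normalized is not stated in the labels. Subread, featureCounts, limma and build GRCh38 are named in the submitters' processing notes, without their roles. Rows with a gene ID but no symbol (385) took 0.0122% to 0.0276% of counts and were kept. Numbers on the knockout columns do not match those in the titles, so each such library has a group but no title number, and a letter (a, b) tells it from its partner.

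Counts were fitted with edgeR 4.0.16 in R 4.3.3 (filterByExpr, TMM, robust quasi-likelihood, 1 coefficient per group, 9 residual degrees of freedom). Each adjusted p comes from that test, with Benjamini-Hochberg adjustment over all 14571 tested genes, unless another is named. SE is the fold change over the square root of F. The smallest p of an exact permutation test of 2 libraries against 2 is 0.333, and permutation was therefore not used. The script was tested on simulated data. CPM uses TMM-scaled library sizes, which were 11.8 to 24.19 M before scaling. Transcript lengths are the longest coding transcripts of GENCODE 29.

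Alternatives were DESeq2 size factors, upper quartile scaling, no filter, a filter of 5 CPM in 2 libraries, DESeq2 1.42.0, limma-voom (limma 3.58.1), the compared groups alone, each library left out, untreated cells as control, and a replicate block (between lines, added after the data were seen). Named library by library were HSPA5 and, in each comparison, the called genes with the 5 smallest p and up to 3 more with the largest fold changes, or the 3 smallest p where fewer than 3 were called. From the other pathway lists up to 3 called genes with the smallest p could be named. The genes and lists were chosen with earlier results of these data known. A planned look at C-terminal tails was not made.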

Additional observations from a re-analysis of the deposited data

Results flagged for a closer look

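The effect of the IKZF1 label differed between H929 and MM1S, by a test of the difference itself in edgeR's quasi-likelihood model, for 18 of the 42 genes, and the same 18 were called without OPM2 empty vector replicate 1. The log2 fold change in H929 minus that in MM1S was -1.97 for DERL3, -1.23 for PDIA6, -1.17 for SYVN1, -1.16 for DNAJC3, -1.12 for MZB1, -1.03 for SEC62, -0.95 for HYOU1 and -0.84 for HSPA5. It was -0.80 for SSR3, -0.72 for SEC61A1, -0.71 for ATF6, -0.70 for DNAJB9, -0.68 for P4HB, -0.66 for DNAJB11, -0.57 for PDIA4, -0.55 for DERL2 and -0.46 for PDIA3. The only positive value among the 18 was 0.49, for DERL1. Between H929 and OPM2 the effect differed for 8 genes, and 8 of these were called without OPM2 empty vector replicate 1. Between MM1S and OPM2 it differed for 15, of which 14 were called without that library; CALR was the other one.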

How the results depend on the processing

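Counts of called genes among the 42 moved by more than 1.5 times under several settings; the share of all genes called is in brackets. With the compared groups alone they were 11 in H929 (13.3%), 33 in MM1S (55.4%), 20 for lenalidomide (45.4%), 3 between the OPM2 knockouts (2.83%) and 31 for H929 minus MM1S (29.5%). They were 0 for the IKZF1 and IKZF3 labels in OPM2 (0.929% and 0.419%), empty vector against untreated (0%) and H929 minus OPM2 (0.863%), with 10, 10, 12 and 8 genes at an unadjusted p under 0.05 by edgeR. They were 3 for MM1S minus OPM2 (5.22%), 15 for H929 against OPM2 (44.2%) and 17 for MM1S against OPM2 (47.5%). DESeq2's Wald test gave 12 in H929 (11.8%), 4 for lenalidomide (12.1%), 3 between the OPM2 knockouts (3.97%), 15 for H929 minus OPM2 (18.7%) and 16 for lenalidomide minus IKZF1 (12%). With no low-count filter the counts were 4 for lenalidomide (8.67%), 5 between the knockouts (3.71%), 14 for H929 minus OPM2 (14.4%) and 15 for lenalidomide minus IKZF1 (10.5%). With untreated cells as control, 1 was called for the IKZF1 label (7.76%) and 5 for the IKZF3 label (8.27%) in OPM2. Other scalings changed no count by over 1.5 times.

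Leaving out 1 library gave 1 to 21 in H929 (4.57% to 22.2%), 12 to 32 in MM1S (15.5% to 42.3%), 9 to 32 for the IKZF1 (20.5% to 53.4%) and 13 to 35 for the IKZF3 label in OPM2 (17% to 53.6%), 0 to 8 for lenalidomide (3.87% to 21.9%), 11 to 35 for empty vector against untreated (14.2% to 52.5%) and 0 to 13 between the knockouts (0.796% to 8.94%). For differences of effects it gave 11 to 31 (H929 minus MM1S; 9.56% to 28.9%), 3 to 29 (H929 minus OPM2; 3.21% to 45.7%), 5 to 33 (MM1S minus OPM2; 9.12% to 46.9%) and 0 to 33 (lenalidomide minus IKZF1; 0.0669% to 44%). The highest of each count came without an OPM2 empty vector library. By edgeR, 3 to 6 genes had an unadjusted p under 0.05 in the fits that called none between the knockouts, and 13 to 18 in those for lenalidomide minus IKZF1. A lone library is assumed to vary like the other groups.

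Against untreated cells 12 genes called for the IKZF1 label in OPM2 changed sign: HSPA5 0.11, SEL1L -0.18, SSR4 0.037, MANF 0.30, ERN1 -0.18, SEC61B 0.25, SDF2L1 0.51, EDEM3 -0.23, SRPRB 0.17, EIF2AK3 -0.20, CALR 0.47 and ATF6 -0.002. For the IKZF3 label 7 did: SEC61B 0.026, MANF 0.10, SRPRB 0.048, SDF2L1 0.29, EDEM3 -0.021, DNAJC3 -0.14 and DNAJB11 0.048. CRELD2 in H929 against OPM2 stood at 0.012 without OPM2 empty vector replicate 1 and at -0.835 without replicate 2. The cause was not tested.

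Empty vector and untreated libraries of OPM2 share the numbers 1 and 2, and their deviations correlated at 0.202 over 14571 genes. With a replicate block 9 genes were called between these groups (13.7% of all genes), and 18 for lenalidomide (44.7%), whose letters A and B correlated with the untreated numbers at 0.0102; the numbers give no pairing by design. Deviations of the same-numbered empty vector libraries correlated at -0.0395 (H929 and MM1S), -0.109 (H929 and OPM2) and 0.104 (MM1S and OPM2). The labels tie these libraries by number only, and the correlations cannot show whether they shared a batch. A replicate block between lines, chosen after seeing the data, gave 36 called genes for H929 against MM1S (82.4%), 11 for H929 against OPM2 (44.4%) and 18 for MM1S against OPM2 (52.1%). No paired analysis was possible because the knockout columns carry no title number in the comparisons that hold a knockout group. ERO1B, the lowest gene, had 25 to 193 counts per library and SEs of 0.19 (H929) to 0.235 (OPM2 empty vector against untreated) within lines.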
